A study of Mus musculus with 9 samples.

Results

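The olfactory signal transduction cascade and neuronal maturity were read out through 10 genes, Gnal, Gnb1, Gng13, Adcy3, Cnga2, Cnga4, Cngb1, Ano2, Slc24a4 and Omp. The tissue was the main olfactory epithelium (MOE) of the nose, where the olfactory sensory neurons (OSNs) lie. The genes were chosen by name for their known roles, not by a rule on their measured values, but with earlier results of these data known. They are 10 of the 24421 genes in the count table. All 10 had more than 10 counts summed over the libraries and entered the tests.

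The samples were 9 RNA sequencing libraries of whole MOE at postnatal day 14, made by polyA selection and a directional kit. The labels give the strain as C57BL/6, while the study describes its mouse lines as a whole as of mixed C57BL/6J and 129 background. The animals carried no copy (WT), 1 copy (het) or 2 copies (homo) of a CRISPR-Cas9 deletion of TAAR enhancer 2, a regulatory element in the gene cluster of the trace amine-associated receptors (TAARs). Each genotype had 3 libraries, numbered 1 to 3 in the labels, which do not say what the number marks. The deletion came from 1 established line, made by injection into C57BL/6J zygotes, and no count reports the element itself, which has no row in the table. Total counts ran from 20527992 to 32262005 with a median of 26174388. A level is given as CPM, the counts of a gene per 1000000 counts of its library, with library sizes scaled by TMM. Sex is not stated for any library. By the study's account the genotypes were littermates with 3 mice each, and the labels do not say which libraries share a litter.

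In OSNs an odorant binds a receptor in the cilia and releases the G protein Golf, whose alpha, beta and gamma subunits are encoded by Gnal, Gnb1 and Gng13. The alpha subunit activates adenylyl cyclase 3 (Adcy3), and cyclic AMP opens a cation channel built from Cnga2, Cnga4 and Cngb1. Entering calcium opens the chloride channel Ano2, the exchanger Slc24a4 then removes calcium from the cilium, and Omp, the olfactory marker protein, is the classical marker of mature OSNs. In a whole tissue, fewer cells of a type and less RNA per cell cannot be told apart.

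Because 9 of the 10 genes are known as parts of the same cilium, the stretches upstream of their start sites were searched for letters they share. RefSeq promoter windows (GRCm38.p6) were searched for 8 of the 10 genes, with 12 windows in all. No window of Gnal or Omp was searched, so the counts below say nothing of these genes. The 250 bases before each start were searched on both strands for CCCNNGGG, the core letters of the Olf-1/EBF type of site, and for TAATTA, the core letters of a homeodomain type of site. Both motifs read the same on either strand, so a match has no direction of its own. The letters CCCNNGGG were found for 5 of the 8 genes, against 13.4% of 27025 genes and 11.8% of 32851 windows of the same length. TAATTA was found for 0 of the 8 genes, against 5.65% of genes and 4.84% of windows. The 5 stretches with a match are given next, each 40 bases long on its gene's strand in mm10, with the matched letters in capitals.
Gng13 (chr17:25717062-25717101, plus): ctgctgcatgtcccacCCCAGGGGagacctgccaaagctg
Cnga2 (chrX:71991767-71991806, plus): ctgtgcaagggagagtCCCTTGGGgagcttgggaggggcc
Cngb1 (chr8:95306691-95306730, minus): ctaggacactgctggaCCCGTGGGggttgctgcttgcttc
Ano2 (chr6:125711105-125711144, plus): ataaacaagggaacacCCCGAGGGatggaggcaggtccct
Slc24a4 (chr12:102128602-102128641, plus): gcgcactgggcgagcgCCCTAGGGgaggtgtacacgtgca
The match lay 94 bases before the start in Gng13, with a second match that overlapped it and began 95 bases before the start. It lay 66 bases before the start in Cnga2, 129 in Cngb1, 67 in the third window of Ano2 and 109 in Slc24a4. These matches describe letters in a window and say nothing of binding.

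The genes differed widely in level, and most of them varied little from library to library. Per kilobase of exon (CPM divided by the length of all annotated exons in GENCODE M21), Omp was the highest with a mean of 994 CPM per kb over the 9 libraries, followed by Gnb1 at 316, Gnal at 184, Cnga2 at 181 and Gng13 at 164. Adcy3 followed at 84.9 CPM per kb, Cnga4 at 62.1, Ano2 at 49.9, Cngb1 at 27.9 and Slc24a4 at 12.7. In that order the library ranges of Gnal and Cnga2, of Cnga2 and Gng13, and of Gng13 and Adcy3 overlapped, and those of every other pair of neighbours did not. Gng13 was above Adcy3 within each of the 9 libraries, and Gnal was above Cnga2 in 6 of 9. When the longest transcript was used in place of all exons, Ano2 at 68.5 CPM per kb came before Cnga4 at 66.6, and the rest of the order stayed as it was. The distances changed, with Gnal at 358 CPM per kb and Cnga2 at 182 by that length, and Cngb1 at 42.2.

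**Figure D1:**
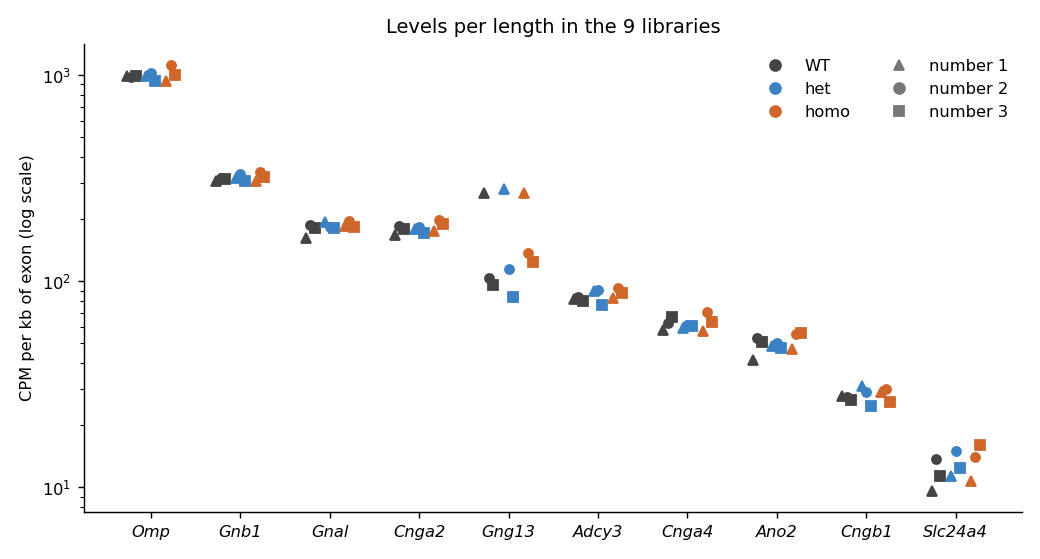
Level per length of the 10 genes, in CPM per kb of exon on a log axis, with 1 point for each of the 9 libraries, coloured by genotype and shaped by replicate number, and genes ordered by their mean. Omp stands at 932.2 to 1114 CPM per kb and Slc24a4 at 9.63 to 16.1, and Gng13 is split between the 3 libraries of number 1 and the other 6.

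The G protein alpha subunit gene Gnal (chromosome 18, 67088216 to 67226792, plus strand, protein coding) stood at 1817, 2092 and 2031 CPM in the WT libraries 1 to 3. The het libraries were at 2156, 2054 and 2027 CPM, and the homo libraries at 2078, 2197 and 2035. WT replicate 1 was the lowest of the 9 libraries, and the genotypes overlapped. Homo was higher than WT by 0.09 on the log2 scale (SE 0.11), a ratio of 1.06 with a 95% interval from 0.897 to 1.26. Gnb1 (chromosome 4, 155491361 to 155559269, plus strand), the beta subunit gene, was the steadiest of the 10, with a coefficient of variation of 3.67% over the 9 libraries. It read 1300, 1351 and 1329 CPM in WT, 1355, 1410 and 1300 in het, and 1298, 1437 and 1366 in homo, and the log2 difference of homo from WT was 0.04 (SE 0.099).

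The gamma subunit gene Gng13 (chromosome 17, 25717171 to 25719406, plus strand) had a different pattern. It read 205.7, 79.9 and 74.2 CPM in WT, 216.9, 88.9 and 64.5 in het, and 206.8, 106.2 and 95.7 in homo. In all 3 genotypes the library of number 1 was the highest, and the libraries of numbers 2 and 3 lay at 64.5 to 106.2. Raw counts of Gng13 were 1628 to 4586, and their spread over the libraries, a coefficient of variation of 50.3%, was the largest of the 10 genes. The gene has only 0.773 kb of exon, and 51.6% of it overlaps the exons of Chtf18 on the opposite strand. Chtf18 itself was at 9.52 to 10.7 CPM in number 1 and 6.78 to 10.7 in the others.

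Adcy3 (chromosome 12, 4133103 to 4213525, plus strand), the cyclase gene, was at 509, 526 and 499 CPM in WT, at 557, 569 and 479 in het, and at 516, 577 and 544 in homo. The lowest library was het replicate 3 and the highest homo replicate 2, and no genotype was clear of another. The log2 difference of homo from WT was 0.09 (SE 0.10), with a ratio of 1.07 and a 95% interval from 0.912 to 1.25. Of its exons, 22.1% overlap Cenpo on the opposite strand, a gene with at most 12.9 CPM in any library.

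Cnga2 (chromosome X, 71991849 to 72010218, plus strand) encodes the principal subunit of the cyclic nucleotide-gated channel. It was at 517, 574 and 552 CPM in WT, 555, 563 and 529 in het, and 540, 614 and 584 in homo. The modulatory subunit gene Cnga4 (chromosome 7, 105404568 to 105408742, plus strand) was at 154, 167 and 178 CPM in WT, 158, 163 and 161 in het, and 152, 188 and 169 in homo. Cngb1 (chromosome 8, 95239045 to 95306585, minus strand), which encodes the third subunit, was at 260, 255 and 248 CPM in WT, 290, 272 and 233 in het, and 270, 280 and 244 in homo. The genotypes overlapped for all 3 subunits, and the log2 differences of homo from WT were 0.08 (SE 0.095) for Cnga2, 0.03 (SE 0.098) for Cnga4 and 0.06 (SE 0.10) for Cngb1. Within each genotype, Cnga4 was lowest in number 1 of all 3 genotypes, while Cngb1 was highest in number 1 of WT and of het.

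Ano2 (chromosome 6, 125690419 to 126040126, plus strand), the calcium-activated chloride channel gene, was at 223, 284 and 274 CPM in WT, 260, 271 and 256 in het, and 253, 297 and 301 in homo. WT replicate 1 was the lowest library and homo replicate 3 the highest, and the ranges of the genotypes overlapped. Slc24a4 (chromosome 12, 102128733 to 102267091, plus strand), the exchanger gene, was at 43.6, 62.1 and 51.5 CPM in WT, 51.1, 68.2 and 55.9 in het, and 48.5, 63.1 and 72.7 in homo. It was the lowest of the 10 genes and, after Gng13, the most variable, with a coefficient of variation of 16.9% over the libraries. Homo was above WT by 0.12 (SE 0.12) on the log2 scale for Ano2 and by 0.23 (SE 0.18) for Slc24a4.

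Omp (chromosome 7, 98143359 to 98145502, minus strand), the maturity marker, was at 2129, 2087 and 2110 CPM in WT, 2109, 2191 and 2011 in het, and 1999, 2388 and 2150 in homo. The homo libraries held both the lowest and the highest of the 9 values. Omp averaged 2109 ± 20.99 CPM over the WT libraries, 2104 ± 90.0 over the het and 2179 ± 196 over the homo libraries (SD, n = 3 each). The log2 difference was 0.05 (SE 0.11) for homo and −0.004 (SE 0.11) for het against WT, with 95% intervals of the ratio from 0.868 to 1.23 and from 0.838 to 1.19.

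**Figure D2:**
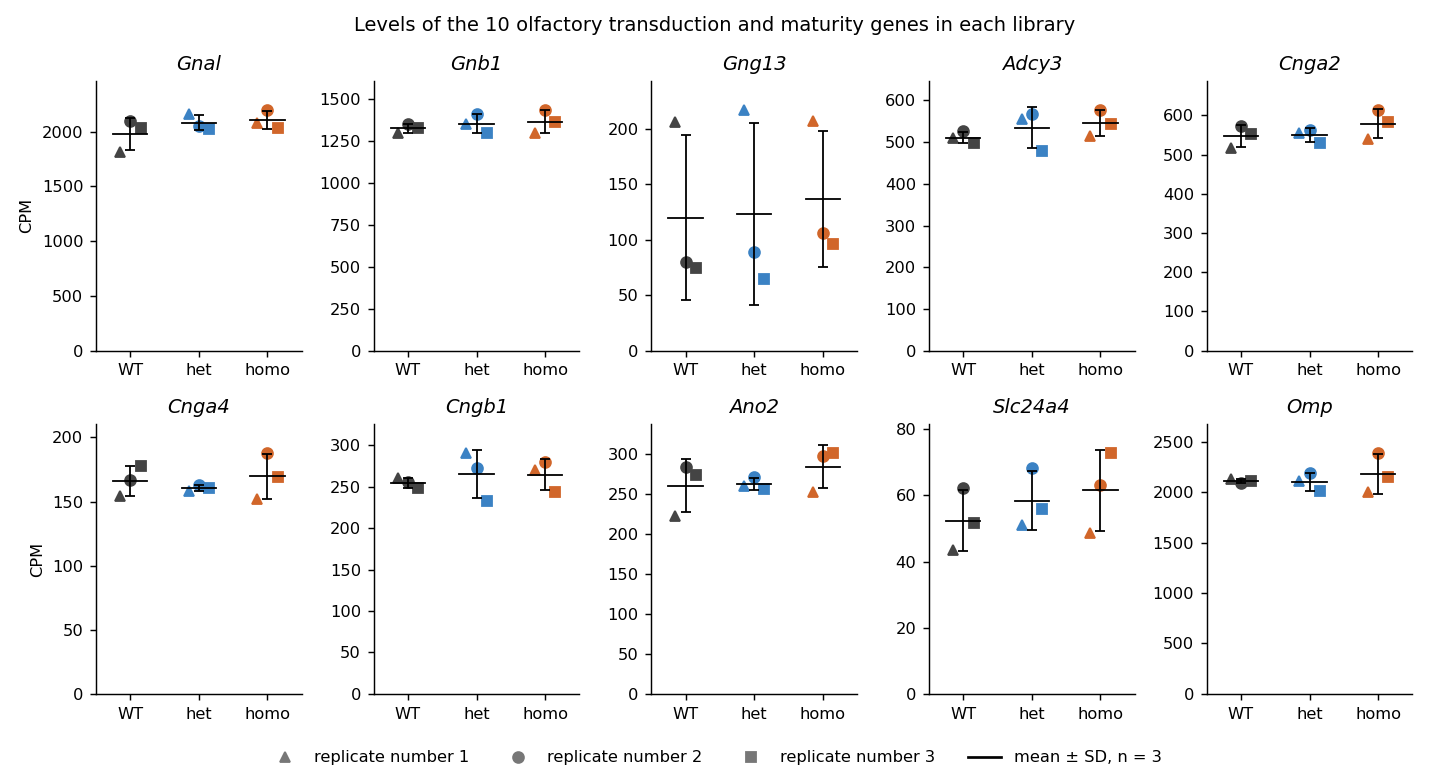
CPM of each of the 10 genes in the 9 libraries, by genotype (WT, het, homo), with 1 symbol per replicate number and the mean ± SD over 3 libraries in black, each axis starting at 0. The genotypes overlap in every panel, and in the Gng13 panel the 3 libraries of number 1 sit between 205.7 and 216.9 CPM, above the other 6.

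The first comparison asked whether loss of TAAR enhancer 2 went with a change of the transduction machinery shared by receptor-bearing neurons. In homo against WT, 0 of the 10 genes were called (edgeR quasi-likelihood test, Benjamini-Hochberg adjusted p under 0.05 and fold over 1.5), where 0.0202% of the 19775 genes tested were, and 0 had an unadjusted p under 0.05, where 3.45% of all genes did. The unadjusted p-values of the 10 genes ran from 0.238 for Slc24a4 to 0.770 for Cnga4, and each edgeR adjusted p was 1. DESeq2 and limma-voom also called 0 of the 10. All 10 point estimates were higher in homo, with log2 differences from 0.03 to 0.23 and a median of 0.08, beside a median of 0.004 and 51.2% higher over all genes tested. Most of these genes varied together over the libraries, so the 10 estimates are not separate observations. Homo replicate 2 was the highest library for Gnal, Gnb1, Adcy3, Cnga2, Cnga4 and Omp. Without it the log2 differences were −0.057 for Cnga4, −0.0012 for Gnb1 and −0.031 for Omp, and the other genes kept their sign. Within same-numbered libraries, homo was above WT in 3 of 3 numbers for Gnal, Gng13, Adcy3, Cnga2, Ano2 and Slc24a4, and in fewer for the others. Some of these ratios were close to 1, such as 1.002 for Gnal in number 3 and 1.005 for Gng13 in number 1. The same count over all genes was not made, and the numbers were not taken to pair homo with WT. The libraries of homo and WT were separate for 0 of the 10 genes, where they were separate for 5.68% of all genes.

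These data bound the difference for 9 of the genes. Apart from Gng13, the 95% intervals of the homo to WT ratio began no lower than 0.868, for Omp, and ended no higher than 1.56, for Slc24a4. For 8 of these 9 genes the upper end was under the 1.5-fold limit used for calling. Gng13 was the exception, with an SE of 0.54 and a ratio of 1.14 whose interval ran from 0.494 to 2.62. With the replicate number as a block its ratio was 1.202 with an interval from 1.01 to 1.44, and the edgeR adjusted p over all genes was 0.725. With only the 6 libraries of numbers 2 and 3, an alternative chosen after the data were seen, Gng13 was higher in homo by 0.39 on the log2 scale, with an unadjusted edgeR p of 0.0415 and a Benjamini-Hochberg adjusted p of 0.685. Its homo to WT ratio was 1.01 among the libraries of number 1, 1.33 for number 2 and 1.29 for number 3.

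In het against WT, 0 of the 10 genes were called, where 0.00% of all genes were, and 0 had an unadjusted p under 0.05, beside 1.28% of all genes. Of the estimates, 8 were higher in het and 2 lower, Cnga4 by −0.05 and Omp by −0.004 on the log2 scale, and the median was 0.04. The libraries were separate for 0 of the 10 genes and for 3.95% of all genes. The replicate numbers were taken to pair WT with het, and with the number as a block 0 of the 10 genes were called. The lowest edgeR adjusted p was then 0.946. For Gng13 the het to WT ratio was 1.01 with an interval from 0.846 to 1.21, beside 0.447 to 2.37 without the block. Within same-numbered libraries het was above WT in 2 of 3 numbers for Gng13, with ratios from 0.870 to 1.11. In homo against het, 0 of the 10 were called and 0.00506% of all genes, 0 had an unadjusted p under 0.05 and 0.662% of all genes did, and 0 had separate libraries beside 4.15% of all genes. Of the estimates, 9 were higher in homo and that of Cngb1 was −0.004. The test for any difference among the 3 genotypes also called 0 of the 10 genes, beside 0.00506% of all genes, with unadjusted p-values from 0.469 for Slc24a4 to 0.936 for Gng13. These comparisons share libraries, so their estimates are not independent of each other.

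**Figure D3:**
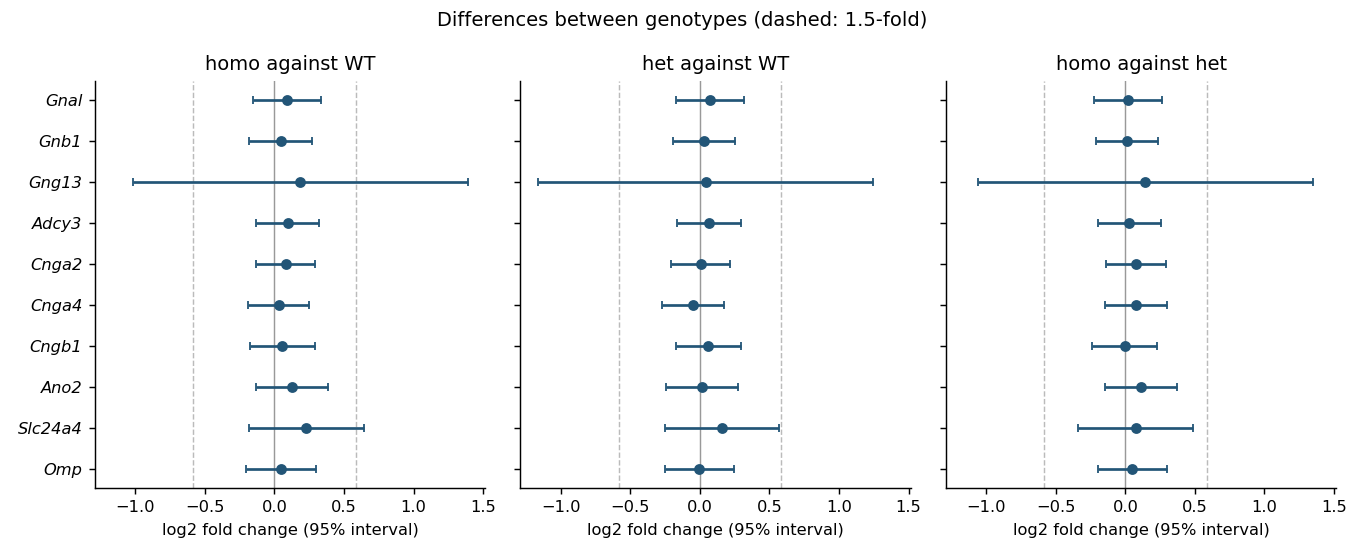
Log2 fold change of each of the 10 genes in the 3 genotype comparisons, with points for the edgeR estimate, bars for its 95% interval and dashed lines at a 1.5-fold change. All 30 intervals include 0, and those of Gng13 are the widest, from 0.494-fold to 2.62-fold in homo against WT.

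The replicate number, not the genotype, went with the differences that passed a test. In an edgeR fit with genotype as a term, Gng13 differed with the number at a Benjamini-Hochberg adjusted p of 7.81e-04 and Slc24a4 at 0.0422, while 8 of the 10 did not pass, their lowest edgeR adjusted p being 0.146. Over all genes 20.6% passed the same test, so a count of 2 of 10 is near the background. The 2 genes moved in opposite directions. Against the mean of numbers 2 and 3, a contrast chosen after the values were seen, number 1 was higher for Gng13 by 1.33 on the log2 scale (SE 0.096), a ratio of 2.51 with a 95% interval from 2.15 to 2.92 and an edgeR adjusted p of 2.16e-04. For Slc24a4 number 1 was lower, at −0.38 (SE 0.091), a ratio of 0.768 with an edgeR adjusted p of 0.0165, a change smaller than the 1.5-fold limit. The number test of Slc24a4 was near the limit of 0.05. Its edgeR adjusted p was 0.149 without WT replicate 1, 0.0988 without WT replicate 2 and 0.135 without het replicate 1. It was 0.119 without het replicate 2 and 0.213 without homo replicate 1. The log2 difference of number 1 for Slc24a4 ran from −0.43 to −0.29 with a library left out. Cngb1 passed the number test without WT replicate 3, at an edgeR adjusted p of 0.0328. Gng13 was thus the 1 gene of the 10 that was called in this contrast, beside 9.16% of all genes.

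For 3 of the 10 genes the libraries of number 1 did not overlap the others, where this held for 34.0% of all genes. They were Gng13, Cnga4, with 152 to 158 CPM in number 1 and 161 to 188 in the rest, and Slc24a4, with 43.6 to 51.1 against 51.5 to 72.7. The difference of Gng13 was seen in each genotype, with a ratio of number 1 to the mean of the other libraries of 2.67 in WT, 2.83 in het and 2.05 in homo. A test of whether that ratio differed between genotypes gave an unadjusted p of 0.249 for Gng13 and an edgeR adjusted p of 1. Among the 11111 genes with a mean of at least 10 CPM and a known transcript, 23 had a larger increase in number 1 than Gng13.

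Sequence composition moved with the replicate number over the 11111 genes with a mean of at least 10 CPM and a known transcript. Gng13 is at one end of the range of the 10 genes. The longest transcript of Gng13 has 58.7% G and C bases, the highest of the 10, and the median log2 difference of number 1 from the others ran from −0.25 in the 669 genes under 40% GC to 0.35 in the 404 genes of 60% and more. In the bin of Gng13, from 55% to 60%, the median was 0.23 with quartiles of 0.005 and 0.44, and 8 of 1989 genes had a larger increase. Omp and Adcy3 fall in the same bin with 57.0% and 56.7%, and their differences were −0.05 and −0.01. By exon length the medians were 0.08 under 1 kb, 0.10 from 1 to 2 kb and −0.06 at 8 kb and more, and 2 of the 151 genes under 1 kb exceeded Gng13. Whether base composition or length had a part in the difference of Gng13 was not tested.

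**Figure D4:**
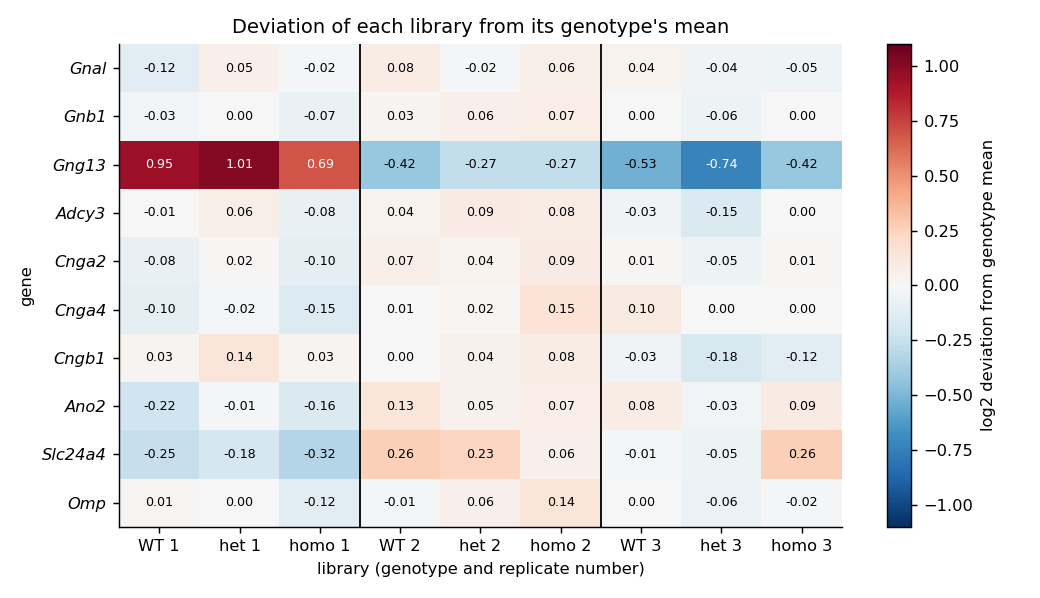
Log2 deviation of each library from the mean of its genotype for the 10 genes, with libraries as columns grouped by replicate number and colour from blue (below) to red (above). Gng13 is red in the 3 libraries of number 1 (0.69 to 1.01) and blue in the other 6, and Slc24a4 is blue in all 3 libraries of number 1.

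Ratios within a library, which need no scaling between libraries, showed how steady the subunits of a complex were relative to each other. Per kb, Cnga4 was at 34.4% ± 1.46 and Cngb1 at 15.5% ± 1.17 of Cnga2 (SD over 9 libraries). The ratio of Cnga4 to Cnga2 was 35.3% in WT, 34.0% in het and 34.0% in homo, less than 1 SD of WT apart. Cngb1 to Cnga2 was higher in number 1, at 16.6% to 17.3%, than in the other libraries, at 13.8% to 15.99%. Gnb1 was at 172% ± 7.59 of Gnal, and the levels of Adcy3 and Cnga2 were 8.55% ± 0.358 and 18.2% ± 0.668 of that of Omp. The size of a ratio between genes depends on the length it is divided by, while its spread over libraries relative to its mean does not. By the longest transcript, Gnb1 was at 120% ± 5.29 of Gnal and Cngb1 at 23.2% ± 1.75 of Cnga2. Gng13 to Gnb1 was not steady, with 87.4% to 88.4% in number 1 and 27.4% to 40.8% in the other libraries. Ano2 to Cnga2 went the other way, with 24.8% to 26.9% in number 1 and 27.6% to 29.6% in the rest. The ratios given by number were picked from a longer list after their values were seen. As single genes, 34.0% of all genes had libraries of number 1 separate from the others, and no such share was computed for ratios.

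Apart from Gng13, the genes tended to be high and low in the same libraries. As deviations from the genotype mean over the 9 libraries, the 36 pairs among the other 9 genes had a median Pearson r of 0.62, from −0.28 to 0.91, and 33 of the 36 were positive. The highest was that of Gnb1 with Cnga2. Gng13 had a median r of −0.31 with the others, was positive with 2 of them, and ran from −0.74 with Slc24a4 to 0.67 with Cngb1. These correlations share the library scaling and the composition of each tissue sample and are given as a description. The 10 genes outside the set whose deviations were most like the mean of the set were Polr1e (r = 0.97), Mrpl27 (0.97), Bace1 (0.96), Isoc2a (0.95), Gnb5 (0.94), Ccdc64b (0.91), Nsg1 (0.90), Fbxl4 (0.89), Mrps17 (0.89) and Orai2 (0.89), out of 11504 genes with at least 10 CPM, over 9 libraries.

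The share that these genes held of the summed level of their listed relatives differed by family. Each share depends on the lengths used, here those of all annotated exons, and shares by the longest transcript were not computed. For Gnal the 2 lengths are 11.2 kb and 5.74 kb. Per kb, Cnga2, Cnga4 and Cngb1 held 99.8% ± 0.042 of the summed level of 6 cyclic nucleotide-gated channel genes (SD over 9 libraries). Cnga1, the rod channel gene, had at most 5 counts in any library. Gnb1 held 89.2% ± 1.24 of 5 beta subunit genes, Gnal 62.5% ± 5.32 of 5 alpha subunit genes (with Gnas, Gnai1, Gnai2 and Gnao1), and Adcy3 72.2% ± 2.73 of 10 adenylyl cyclase genes. Gng13 held 69.7% ± 7.26 of 8 gamma subunit genes, and Ano2 59.9% ± 3.98 of 4 anoctamin genes. Slc24a4 was the exception with 27.4% ± 2.66 of 5 exchanger genes, and Slc24a2 was at 30.7 CPM per kb, above the 12.7 of Slc24a4.

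None of the 34 relatives was called in any of the genotype comparisons with edgeR, and their median log2 difference of homo from WT was −0.06. Of all genes tested, 0.0202% were called in homo against WT, 0.00% in het against WT and 0.00506% in homo against het. At an unadjusted p under 0.05, beside 3.45% of all genes in homo and 1.28% in het, there were 0 relatives in homo and 1 in het, both against WT. That gene was Ano10, named after its value was seen, with a log2 difference of −0.24 and an unadjusted edgeR p of 0.0429. The 8 with the highest mean CPM were Gnao1 (394 CPM), Slc24a2 (375), Gnas (349), Ano6 (148), Gnai2 (137), Adcy6 (118), Gnb2 (99.4) and Ano1 (87.2). With the replicate number, 9 of the 34 passed the edgeR test, or 26.5% beside 20.6% of all genes tested. Of these, 8 were higher in number 1, and Adcy7, named after its value was seen, was lower by 0.49 on the log2 scale. Gnao1, which encodes the alpha subunit of another G protein of neurons, was higher in number 1 by 0.49 (SE 0.053, edgeR adjusted p 6.55e-04), and Gnai2 by 0.79 (SE 0.12, edgeR adjusted p 0.00258).

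The 15 partners of the pathway, which shape or end the response, were also called in none of the genotype comparisons by edgeR, with 0 unadjusted p under 0.05 in homo or het against WT and medians of 0.03 and −0.01. Of all genes tested, 0.0202% were called in homo against WT and 0.00% in het against WT, and 3.45% and 1.28% had an unadjusted p under 0.05. Among the partners with the highest means were Calm2 (865 CPM), Stoml3 (822), Slc12a2 (546), Ric8b (544), Calm3 (449), Pde4a (414) and Gnas (349). Calm2 and Calm3 encode calmodulin, which carries the calcium feedback on the channel, and their homo to WT log2 differences were 0.17 and 0.11 with an edgeR adjusted p of 1 for each. Ric8b, an exchange factor for Golf, was at 0.06 (SE 0.16), and Slc12a2, the transporter that loads the neuron with chloride, at −0.11 (SE 0.18). Best2, an olfactory chloride channel candidate, had at most 8 counts in any library. By replicate number, 5 of the 15 passed the edgeR test, or 33.3% beside 20.6% of all genes tested, and these were Ric8b, Gnas, Pde1c, Calm3 and Slc12a2. Number 1 was higher for Gnas by 0.54 (SE 0.059, edgeR adjusted p 6.75e-04) and for Calm3 by 0.33 (SE 0.061), and lower for Slc12a2, at −0.42 (SE 0.060), Pde1c, at −0.34 (SE 0.081), and Ric8b, at −0.33 (SE 0.069).

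Omp also served as a measure of mature neurons, against which receptor RNA was set within each library. The summed counts of the 14 olfactory Taar genes per 1000 Omp counts were 16.3, 19.9 and 21.2 in WT, 15.2, 16.03 and 19.0 in het, and 8.80, 9.49 and 9.75 in homo. The homo libraries lay below all the others, and the het and WT libraries overlapped. Homo was at 49.1% of WT, a log2 difference of −1.03, with an exact two-sided permutation p of 0.1, the smallest that 3 libraries against 3 allow. The sum joins genes that changed unequally. By edgeR 4 of the 14 were called in homo against WT, at −4.81 for Taar3, −3.28 for Taar6, −2.33 for Taar7a and −3.39 for Taar9. Taar7b, Taar7d and Taar7e, named after their values were seen, were at 0.05, 0.10 and −0.31. Het was at 87.7% of the WT ratio (exact two-sided permutation p of 0.2). With the geometric mean of all 10 genes in place of Omp, the log2 difference of homo from WT was −1.09.

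Odorant receptor (OR) genes, which most OSNs use in place of a Taar gene, gave another ratio. Summed over 1125 OR genes, there were 1.56, 1.85 and 1.62 counts per Omp count in WT, 1.68, 1.78 and 2.04 in het, and 1.76, 1.85 and 1.93 in homo. The genotypes overlapped, and homo was at 111% of WT with an exact two-sided permutation p of 0.2.

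**Figure D5:**
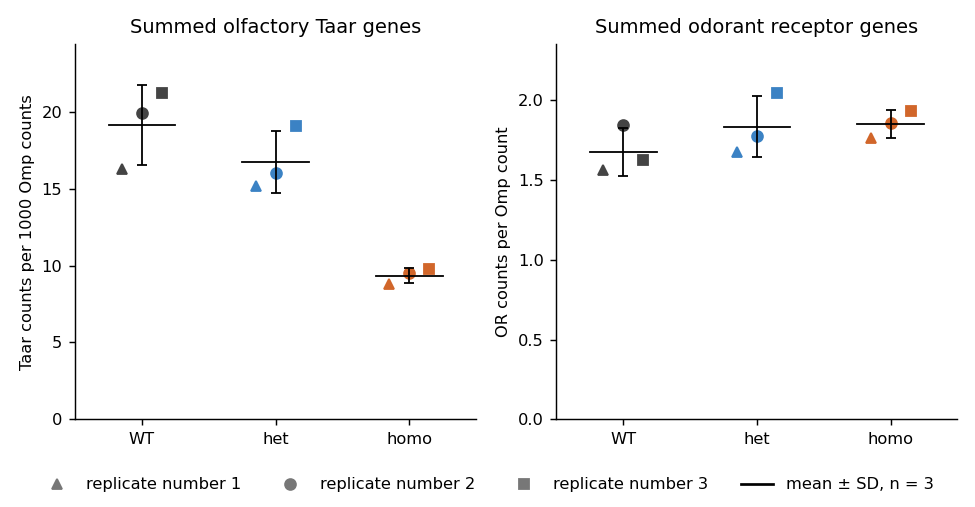
Summed olfactory Taar counts per 1000 Omp counts (left) and summed OR counts per Omp count (right) in each library, by genotype, with the mean ± SD over 3 libraries in black and both axes starting at 0. The 3 homo libraries are at 8.80 to 9.75 Taar counts, below WT and het, and the OR ratios of the genotypes overlap.

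Markers of the other cells of the tissue were read from lists of 3 to 9 genes. For mature and immature OSNs, progenitors, horizontal basal, sustentacular, respiratory ciliated, secretory, ensheathing, leukocyte and blood cells, 0 genes were called in any genotype comparison with edgeR. Of all genes tested, 0.0202% were called in homo against WT, 0.00% in het against WT and 0.00506% in homo against het. Markers with an unadjusted edgeR p under 0.05 against WT were named after their values were seen. They were Krt14 in homo (log2 −0.45, p 0.0439) and Ccdc153 in homo (−0.44, p 0.0107) and het (−0.33, p 0.0377). The share of all genes under 0.05 was 3.45% in homo and 1.28% in het. Of the 5 blood genes, the 4 globin genes had 0 counts in all libraries, and 1 entered the test. With the replicate number, 20.6% of all genes tested passed the edgeR test. Of the lists, 7 of 9 immature OSN, 3 of 5 progenitor and 3 of 3 horizontal basal markers passed, each of them higher in number 1, and 2 of 9 mature markers other than Omp did so. The 2 mature markers were Gfy and Reep6, higher in number 1 by 1.11 and 0.82 on the log2 scale. The summed immature markers were at 2346 to 2434 CPM in number 1 and 1567 to 1996 in the others, and the summed mature markers at 5042 to 5326 against 3682 to 4289. Gfy made up a large part of the mature sum, with a mean of 1424 CPM and a range from 959 to 2282 over the libraries. The mature sum therefore does not stand for the list as a group. The median log2 difference of the mature list was 0.16, with 6 genes above 0 and 3 below, S100a5 at −0.48 among the latter. The 3 leukocyte markers that passed, Ptprc, S100a8 and S100a9, were lower in number 1 and the other two, Cd68 and Csf1r, were at 0.80 and 0.16, while the summed list was at 122.7 to 133 CPM in number 1 against 154 to 761. In the sustentacular, respiratory ciliated, secretory and ensheathing lists, 1 or 2 of 5 markers passed. Omp, at 1999 to 2129 CPM in number 1 and 2011 to 2388 in the others, had ranges that overlapped, and the part of these lists in the difference of Gng13 was not tested.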

How the data were processed

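RNA was sequenced from whole MOE in 9 libraries, 3 per genotype, grouped by the labels. Per the labels and methods, the authors trimmed reads with Trimmomatic 0.36, mapped them to mm10 with HISAT2 2.1.0 and deposited raw read counts per gene from featureCounts (Subread 1.6.2). They also deposited a signal, counts divided by 1 DESeq2 1.20.0 size factor per library, which was checked to be constant within a library and is not used for the tests. The annotation release, the strand option and the handling of multiply mapped reads are not given in the sources used here. Without a stated strand option, reads of a gene and of an overlapping gene on the opposite strand cannot be told apart.

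Raw counts were tested with edgeR 4.0.16 in R 4.3.3 (quasi-likelihood test, TMM, 1 spread estimate over the 9 libraries). The 19775 genes with at least 10 summed counts were tested, and p-values were adjusted over all of them by Benjamini-Hochberg. A gene was called at an adjusted p under 0.05 and a fold over 1.5, and tests of genotype or number as a whole had no fold limit. DESeq2 1.42.0 and limma 3.58.1 were alternatives, and the scripts were tested on simulated data. Intervals are 95% intervals of the fitted fold. Exon lengths, transcript GC and positions came from GENCODE M21 (mm10).

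The 10 genes and all gene lists were chosen with earlier results of these data known. All 10 are named, with the 8 partners and 8 relatives of highest mean CPM and the 10 genes most alike in deviation. A gene that this rule would name is not reported here. Other genes, such as Pde1c, Best2, Cnga1, Gfy, Reep6, the leukocyte markers and the overlapping Chtf18 and Cenpo, were named after their values were seen. The lists overlap, since Gng8 is both a relative and an immature OSN marker, Stoml3 both a partner and a mature marker, and Gnas and Gnb2 both partners and relatives. Deviations from the genotype means over 16156 genes correlated between same-numbered WT and het libraries at 0.669, 0.454 and 0.616, above the limit of 0.1 for each number. They correlated at 0.506, 0.290 and −0.108 between WT and homo and at 0.779, 0.298 and 0.0947 between het and homo. By that limit the numbers were taken to pair WT with het only. The main genotype tests used no pairing, and the replicate block put the number over all genotypes.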

Additional observations from a re-analysis of the deposited data

How the results depend on the processing

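The alternatives were other scalings (DESeq2 size factors, library totals), other filters, DESeq2, limma-voom, a newer edgeR estimate, a replicate block, the compared genotypes alone and each library left out. Added after the data were seen were numbers 2 and 3 alone and the contrast of number 1. None of the 10 genes was called in a genotype comparison under any of them, over 570 member values, the lowest adjusted p being 0.685. The replicate block, with the number as a term, left the genotype calls of the 10 genes at 0. It gave Gng13 a homo to WT log2 difference of 0.27 (SE 0.11), with an edgeR p of 0.0435 and an adjusted p of 0.725.

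Estimates close to 0 changed sign. With a library left out, the log2 differences of homo from WT ran from −0.057 to 0.10 for Cnga4, −0.0012 to 0.082 for Gnb1, −0.25 to 0.83 for Gng13 and −0.031 to 0.11 for Omp. Those of het from WT ran from −0.074 to 0.083 for Ano2, −0.023 to 0.042 for Cnga2, −0.0095 to 0.15 for Cngb1, −0.64 to 0.69 for Gng13 and −0.023 to 0.028 for Omp. Those of homo from het ran from −0.044 to 0.070 for Adcy3, −0.0084 to 0.15 for Cnga4, −0.089 to 0.066 for Cngb1, −0.023 to 0.044 for Gnal, −0.031 to 0.045 for Gnb1, −0.29 to 0.83 for Gng13, −0.027 to 0.10 for Omp and −0.065 to 0.21 for Slc24a4, with a median of −0.014 to 0.084. Those of number 1 from the others ran from −0.064 to 0.054 for Adcy3, −0.10 to 0.033 for Gnal and −0.083 to 0.026 for Omp. With numbers 2 and 3 alone, het against WT was −0.078 for Ano2, −0.041 for Cnga2, −0.012 for Gnal, −0.0052 for Gng13, 0.0040 for Omp and −6e-04 for the median, and homo against het was 0.043 for Cngb1. With library totals Omp was 0.020 in het against WT.

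By replicate number, leaving out a library gave 1 to 3 of the 10 genes, and 714 to 6710 of all genes. The contrast of number 1 called 1105 to 2203 genes with a library left out. Over all genes, homo against WT had 1 call with limma-voom or with the compared genotypes alone, 0 with numbers 2 and 3 alone and 1 to 4 with a library left out. Homo against het had 4 calls with library totals or no filter, 5 with DESeq2, 2 with the newer estimate, 3 with the replicate block and 0 with numbers 2 and 3 alone. Any genotype had 6 with DESeq2, 2 with the newer estimate, 3 with the replicate block and 0 with numbers 2 and 3 alone. The cause of these moves was not tested. Both receptor ratios kept their direction for homo against WT with the other denominator, with each WT or homo library left out and with numbers 2 and 3 alone, the settings they were computed under. Each of the 10 genes had at least 888 counts in each library, and the 3 libraries per genotype limit the precision.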
